A study of Mus musculus with 12 samples.

Results

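The Hox cluster genes were taken as all rows whose symbol is Hox, a letter from a to d and a paralog number, which gave 39 of the 28244 genes in the table. They comprised 11 genes of the Hoxa cluster on chromosome 6, 10 of the Hoxb cluster on chromosome 11, 9 of the Hoxc cluster on chromosome 15 and 9 of the Hoxd cluster on chromosome 2 (GRCm38, GENCODE M21). RNA had been sequenced from pellets of murine mesenchymal progenitors, obtained by collagenase digestion of the heads and condyles of femurs and tibiae of C57/BL6 pups aged 5 or 6 days. The 12 libraries formed 4 groups of 3 replicates. All pellets spent 7 days in chondrogenic medium and were harvested on that day (D7) or after a further 1 (D8), 3 (D10) or 21 (D28) days in osteogenic medium. No transgene, knockout or other agent was used, the sex of the pups is not given, and the sources do not say how many pups or cell preparations stand behind each replicate, so p-values measure the spread between these libraries, which may be technical. The comparisons ask whether the positional Hox pattern of the cells persisted while the pellets passed from a cartilage to a bone medium. No library came from pellets kept in chondrogenic medium past 7 days, so time in culture and medium cannot be told apart.

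Hox genes encode homeodomain transcription factors that lie in clusters, in the same order as they are used along the body axis and, for the posterior paralogs of the Hoxa, Hoxc and Hoxd clusters, along the limb. In the developing limb, paralogs 9 and 10 act mainly in the upper segment that holds the femur or humerus, paralog 11 in the lower segment that holds the tibia or radius, and paralog 13 in the hand or foot. Hoxc9, Hoxc10 and Hoxc11 are known as genes of the hindlimb rather than the forelimb. Mesenchymal cells taken from an adult skeleton often keep the Hox code of the place they came from, and Polycomb and trithorax group proteins are known to hold that state through cell division, the former as repressors and the latter as activators.

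Members of a paralog group carry closely related homeoboxes, so those of groups 8 and 13, which hold the members with the largest calls between D7 and D28, are shown. Each line is the homeobox of 180 bases, read 5′ to 3′ from the longest protein-coding GENCODE M21 transcript, and capitals mark the positions at which the members of that paralog group differ. The members of paralog group 8 differ at 56 of the 180 positions, and in these pellets Hoxc8 was called in 3 comparisons, Hoxd8 had a mean level of 8.13 or more at each time point and Hoxb8 one of 1.47 or less.
Hoxb8: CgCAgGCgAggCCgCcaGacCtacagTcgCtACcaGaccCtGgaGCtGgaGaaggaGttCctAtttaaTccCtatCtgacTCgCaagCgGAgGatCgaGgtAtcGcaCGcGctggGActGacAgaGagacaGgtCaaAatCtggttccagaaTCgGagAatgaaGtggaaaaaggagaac
Hoxc8: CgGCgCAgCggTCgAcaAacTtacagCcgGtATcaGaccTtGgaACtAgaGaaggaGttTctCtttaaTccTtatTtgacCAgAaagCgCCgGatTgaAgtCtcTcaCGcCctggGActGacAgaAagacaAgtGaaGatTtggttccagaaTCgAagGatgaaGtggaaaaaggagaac
Hoxd8: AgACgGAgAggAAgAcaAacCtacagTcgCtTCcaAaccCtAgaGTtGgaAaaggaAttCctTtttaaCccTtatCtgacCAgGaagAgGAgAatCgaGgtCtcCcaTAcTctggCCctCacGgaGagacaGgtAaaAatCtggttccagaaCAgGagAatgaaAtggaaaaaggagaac
The members of paralog group 13, the paralogs of the hand and foot, differ at 82 positions.
Hoxa13: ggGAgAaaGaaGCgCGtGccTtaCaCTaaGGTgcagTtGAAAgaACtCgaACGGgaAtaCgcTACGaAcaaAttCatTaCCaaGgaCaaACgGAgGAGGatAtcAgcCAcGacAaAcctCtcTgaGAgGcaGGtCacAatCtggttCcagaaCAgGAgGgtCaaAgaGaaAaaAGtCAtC
Hoxb13: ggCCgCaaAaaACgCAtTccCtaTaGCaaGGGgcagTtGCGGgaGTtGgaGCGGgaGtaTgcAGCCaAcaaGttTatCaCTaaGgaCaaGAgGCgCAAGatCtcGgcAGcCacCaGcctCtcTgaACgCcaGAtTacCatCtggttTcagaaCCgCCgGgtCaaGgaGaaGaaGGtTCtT
Hoxc13: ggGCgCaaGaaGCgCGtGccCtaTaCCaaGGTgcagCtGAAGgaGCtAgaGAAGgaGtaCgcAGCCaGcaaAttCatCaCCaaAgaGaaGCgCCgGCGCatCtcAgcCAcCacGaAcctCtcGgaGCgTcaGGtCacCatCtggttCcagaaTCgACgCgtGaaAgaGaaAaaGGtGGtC
Hoxd13: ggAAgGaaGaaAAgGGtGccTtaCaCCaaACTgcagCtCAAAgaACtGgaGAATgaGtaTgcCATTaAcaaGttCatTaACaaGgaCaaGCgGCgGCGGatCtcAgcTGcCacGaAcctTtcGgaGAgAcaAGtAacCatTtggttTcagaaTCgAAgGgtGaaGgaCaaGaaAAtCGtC
Hoxc8 and Hoxd8 differ at 48 bases and Hoxa13 and Hoxd13 at 47, and Hoxc8, Hoxd8, Hoxa13 and Hoxd13 share no stretch of 59 bases, the read length, with another gene in the annotated transcripts.

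Values are the deposited log2 of the equalized read count plus 1, and unless a sentence says otherwise levels and differences are on that log2 scale. Depth relative to the other libraries was 0.790 to 1.06 at D7, 0.962 to 1.22 at D8, 0.730 to 1.05 at D10 and 1.20 to 1.31 at D28. The level that 3 reads reach depends on the library, from 1.5025 in the deepest to 2.87 in D10 replicate 1, the shallowest, and values near or under it carry large counting error. Of the 39 genes, 23 were above 3 reads in every library, Hoxb1 and Hoxd12 were at 0 in every library, and Hoxb13 did not exceed 3 reads in any library. The 37 genes other than Hoxb1 and Hoxd12 reached 1 in 3 or more libraries and were tested.

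The Hox pattern was led by Hoxc10 and Hoxa10. Per kilobase of the longest coding transcript, on a linear scale, Hoxc10 stood at 381 ± 38.9 at D7 and 489 ± 27.02 at D28, and Hoxa10 at 346 ± 8.68 and 448 ± 65.5 (mean ± SD, n = 3). Hoxa11, Hoxc6 and Hoxd8 followed. Together, Hoxc10, Hoxa10 and Hoxa11 made up 49.8% ± 2.29 of the summed per-length level at D7. At the later time points D8, D10 and D28 this share was 48.5% ± 1.20, 45.2% ± 1.03 and 44.7% ± 2.42 (n = 3). Of the 10 highest members by this measure, 10 were shared between D7 and D28, and 9 between D7 and D10, where Hoxc11 stood in place of Hoxc8.

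**Figure D1:**
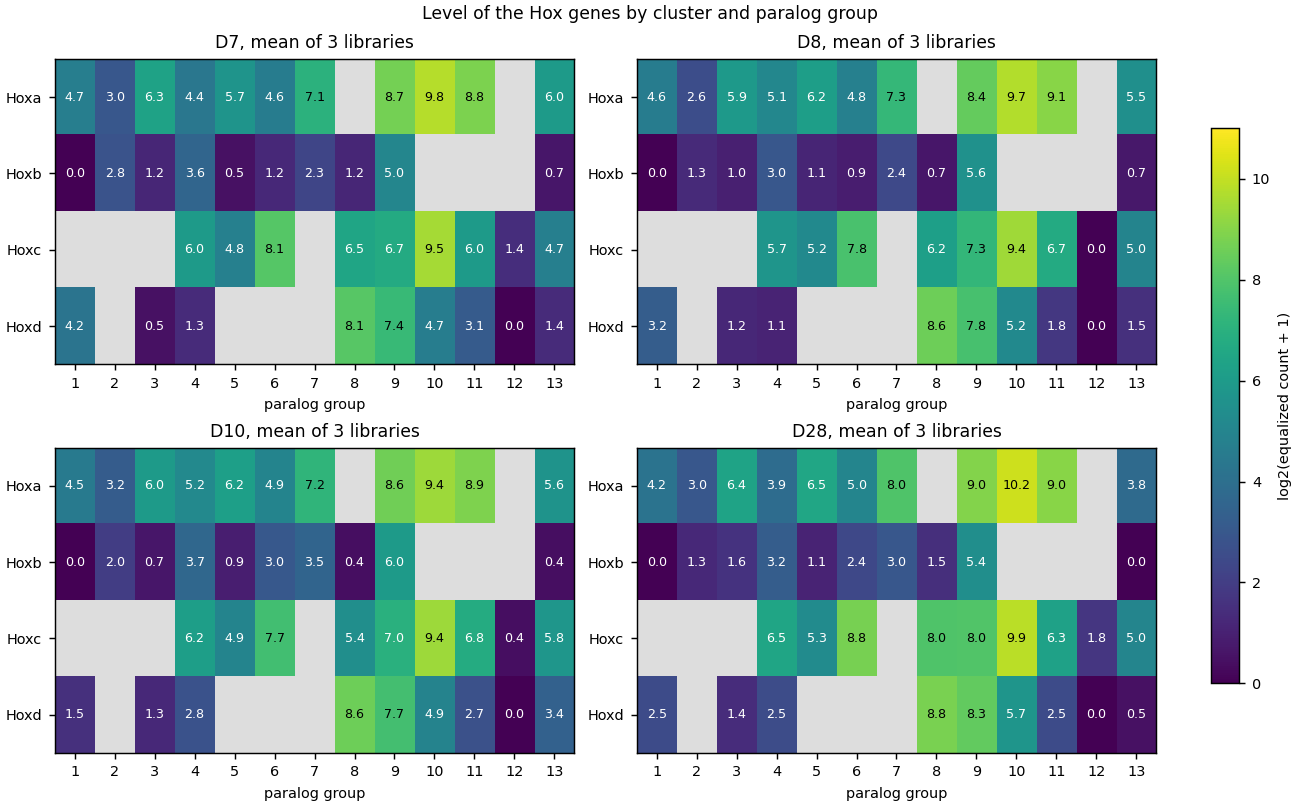
Mean log2 level (3 libraries) of each Hox gene at D7, D8, D10 and D28, with clusters as rows and paralog groups 1 to 13 as columns; grey marks positions without a gene. The same genes are bright at all 4 time points, Hoxa10 from 9.40 to 10.16 and Hoxc10 from 9.40 to 9.87, while the Hoxb row stays dark except for Hoxb9.

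Hoxc10 (chr15:102966796-102971893, plus strand), a paralog of the hindlimb, measured 9.41, 9.43 and 9.67 at D7, 9.50, 9.38 and 9.35 at D8, 9.62, 9.31 and 9.27 at D10 and 9.79, 9.95 and 9.87 at D28. All D28 libraries lay above all others. An overlap of 8.7% of its longest transcript with Hoxc5 on the same strand leaves some of its reads uncertain. Hoxa10 (chr6:52231197-52240854, minus strand) measured 9.77, 9.84 and 9.78 at D7, 9.72, 9.86 and 9.65 at D8, 9.17, 9.53 and 9.49 at D10 and 10.13, 10.38 and 9.97 at D28. Its D10 libraries were all below, and its D28 libraries all above, those of D7 and D8. Hoxd8 (chr2:74704615-74707933, plus strand), the highest of the Hoxd cluster, measured 8.04, 8.17 and 8.19 at D7, 8.56, 8.67 and 8.46 at D8, 8.43, 8.52 and 8.72 at D10 and 8.995, 8.57 and 8.75 at D28. The D7 libraries were the lowest and did not overlap with any other time point. Hoxb9 (chr11:96271457-96276595, plus strand) was the highest of the Hoxb cluster and the only one of it with a mean level above 5. It measured 5.05, 4.97 and 5.08 at D7, 5.34, 5.87 and 5.44 at D8, 5.64, 6.27 and 6.04 at D10 and 5.15, 5.49 and 5.69 at D28, so that D7 was lowest and D10 and D28 overlapped.

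Along the clusters, paralogs 9 to 13 made up 69.1% ± 1.52 of the summed per-length level at D7 and 64.9% ± 2.38 at D28, paralogs 5 to 8 made up 25.0% ± 0.79 and 31.0% ± 1.92, and paralogs 1 to 4 made up 5.92% ± 0.77 and 4.13% ± 0.51 (n = 3). The longest transcripts of Hoxd3 (88.0%) and Hoxd4 (45.1%) overlap other genes on the same strand. Those of Hoxb3 (70.5%), Hoxb2 (58.5%) and Hoxa3 (25.5%) lie partly opposite exons of other genes. Reads of these anterior members, and so the share of paralogs 1 to 4, are uncertain. The Hoxd cluster was split by position. Hoxd8, Hoxd9 and Hoxd10 were above 3 reads in every library, whereas Hoxd11 did not exceed 3.15 ± 0.86 at any time point, Hoxd12 was at 0 and Hoxd13 was at 3 reads or fewer in 9 of 12 libraries. An overlap of 23.9% of the longest Hoxd11 transcript with Gm28309 on the same strand leaves its low level uncertain. Hoxa11, the paralog of the lower segment in the Hoxa cluster, stood in contrast at 8.84 ± 0.12 at D7 and 9.04 ± 0.14 at D28. Part of Hoxa11 (35.0% of its longest transcript) lies opposite exons of Hoxa11os and the strand setting of the counting is not stated, so reads of that part cannot be assigned with certainty.

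Other genes of limb position, chosen here after their values were seen, were also measured. Pitx1, which specifies the hindlimb, stood at 10.60 ± 0.30 at D7 and 10.31 ± 0.08 at D28, and Tbx4, the T-box gene of the hindlimb, at 8.61 ± 0.34 and 8.83 ± 0.19 (n = 3). Tbx5, the T-box gene of the forelimb, was also present, at 7.14 ± 0.19 at D7, 6.73 ± 0.25 at D8 and 6.52 ± 0.27 at D10, and rose to 8.76 ± 0.25 at D28 (log2 fold change 1.61 against D7, limma adjusted p = 1.6e-05). All cells came from the hindlimb according to the labels.

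In the summed level of each cluster on the linear scale, D28 stood above D7 for all 4 clusters. For the Hoxa cluster, the libraries summed to 2172, 2139 and 2200 at D7 and to 2735, 2932 and 2391 at D28, which is 1.24 times the D7 mean. For the Hoxc cluster, they summed to 1336, 1278 and 1525 at D7 and to 2213, 2213 and 1948 at D28, or 1.54 times. For the Hoxd cluster, they summed to 497, 494 and 537 at D7 and to 894, 815 and 803 at D28, or 1.64 times. The Hoxb cluster remained small, at 72.1, 53.3 and 56.1 at D7 and 67.6, 72.3 and 79.3 at D28, and its highest sums were at D10, with 103.4, 105.9 and 103.1. The D7 and D28 sums did not overlap for Hoxa, Hoxc and Hoxd and overlapped for Hoxb. These sums describe the chosen genes and were not tested.

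**Figure D2:**
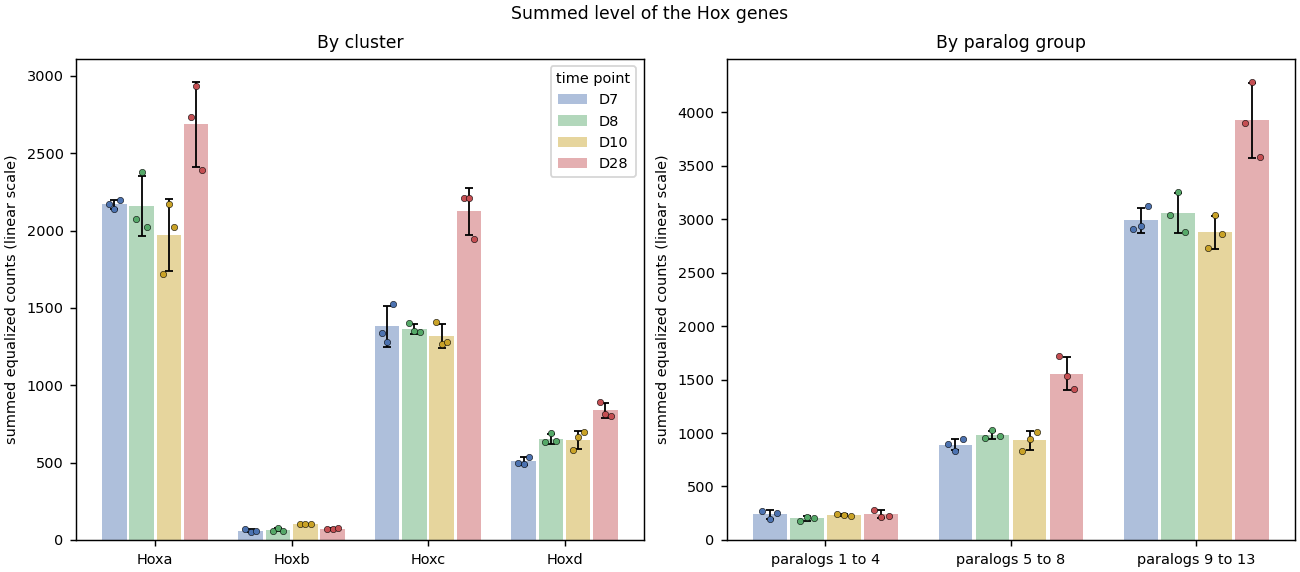
Summed equalized counts of the Hox genes on a linear scale by cluster (left) and paralog group (right); bars and error bars are mean ± SD of 3 libraries and dots are libraries. D7, D8 and D10 are close for Hoxa and Hoxc, and D28 is higher, at 2686 ± 274 for Hoxa and 2125 ± 153 for Hoxc.

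Over the 4 time points together, 17 of the 37 genes tested passed the limma F test at an adjusted p under 0.05, against 64.6% of all genes tested. The smallest adjusted p values were those of Hoxc8 (6.5e-06), Hoxc9 (0.0001) and Hoxa13 (0.00015).

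On the first day in osteogenic medium (D8 against D7) 0 of the 37 genes were called differentially expressed, where a call needed a 2-fold difference (1 on the log2 scale, either way) with a limma adjusted p under 0.05, and 7.04% of all genes tested were called. At an unadjusted p under 0.05, 7 of the 37 passed, against 33.3% of all genes tested, and the study's own rule, which uses an unadjusted p per pair of time points, called Hoxb2 and Hoxc12. Hoxb2 held 6, 5 and 5 reads at D7 and 1, 3 and 1 at D8, and Hoxc12 held 2, 1 and 2 reads at D7 and 0 in each D8 library, and 58.5% of the longest Hoxb2 transcript lies opposite exons of Hoxb3os. Without the fold threshold, Hoxc11 (0.73, adjusted p = 0.026), Hoxc9 (0.55, adjusted p = 0.04) and Hoxd8 (0.43, adjusted p = 0.038) passed, all with higher values at D8, against 21% of all genes tested. For 14 of the 37 the 95% interval of the difference lay wholly between -1 and 1, against 54.9% of all genes tested.

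By D10, 3 of the 37 genes were called against D7, while 18.9% of all genes tested were called. Hoxc8 and Hoxd1 were lower and Hoxb6 was higher, where 10.4% of all genes were called lower and 8.5% higher. Hoxc8 (chr15:102990607-102994111, plus strand), a gene of the trunk and limb bud, measured 6.51, 6.14 and 6.72 at D7, 5.90, 6.33 and 6.46 at D8 and 5.05, 5.95 and 5.35 at D10. The D10 libraries were all below those of D7 (log2 fold change -1.01, SE 0.27, limma adjusted p = 0.0064), but the highest D10 library lay above the lowest D8 library. This call sat at the fold threshold, and it was lost without D7 replicate 1 or 3 or without D10 replicate 1 or 3, with a log2 fold change between -1.26 and -0.81 when a library was left out.

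Hoxd1 (chr2:74762980-74765142, plus strand), the anterior end of its cluster, measured 4.22, 4.86 and 3.56 at D7, which corresponds to 16, 30 and 8 reads. It measured 1.62, 3.55 and 4.56 at D8, 3.26, 1.37 and 0 at D10 (4, 1 and 0 reads) and 1.81, 2.03 and 3.77 at D28 (4, 5 and 20 reads). The D10 libraries were all below those of D7, and the ranges of D8 and D28 overlapped with that of D7 (log2 fold change -2.67 for D10 against D7, SE 0.85, limma adjusted p = 0.019). When values below 2.87 were set to 2.87, the difference of the means was -1.21 and the call was lost, as it was without D7 replicate 1, D7 replicate 2 or D10 replicate 3 and by the study's own rule. With 1 library left out, the log2 fold change lay between -3.53 and -1.90. With a filter on a mean of at least 3 the gene was not tested. Haglr, the non-coding gene next to Hoxd1, also fell at D10 against D7, from 4.28 ± 0.45 to 1.79 ± 1.56 (log2 fold change -2.49, limma adjusted p = 0.025). None of its D10 libraries lay above 2.87 and their spread was wide, so the size of the fall is uncertain. With values below 2.87 set to 2.87 the difference was -1.40.

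Hoxb6 (chr11:96292476-96301569, plus strand) measured 2.37, 0 and 1.37 at D7 (4, 0 and 1 reads), 2.03, 0 and 0.66 at D8 (3, 0 and 1 reads), 2.87, 3.17 and 3.07 at D10 (3, 5 and 5 reads) and 2.20, 1.84 and 3.17 at D28 (6, 4 and 13 reads). The D10 libraries were all above those of D7 and D8. It was called higher at D10 against D7 (1.79, adjusted p = 0.044) and was the 1 gene of 37 called at D10 against D8 (2.14, adjusted p = 0.027), where 9.66% of all genes tested were called. When values below 2.87 were set to 2.87, the difference was 0.16 in both comparisons. With 1 library left out it ranged from 1.17 to 2.35 against D7 and from 1.69 to 2.71 against D8. The calls were lost in 14 and 8 of 22 alternatives, each time a D10 library was left out among them, so a change of Hoxb6 was not reliably detectable at this depth. Between D10 and D8, 2 of the 37 genes passed without the fold threshold, against 28.8% of all genes tested. Without the fold threshold, 8 of the 37 genes passed between D10 and D7, against 41.2% of all genes tested. Among them Hoxc11 (0.79), Hoxb9 (0.95) and Hoxd8 (0.43) had higher, and Hoxa10 (-0.40) and Hoxc6 (-0.46) lower, values at D10.

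**Figure D3:**
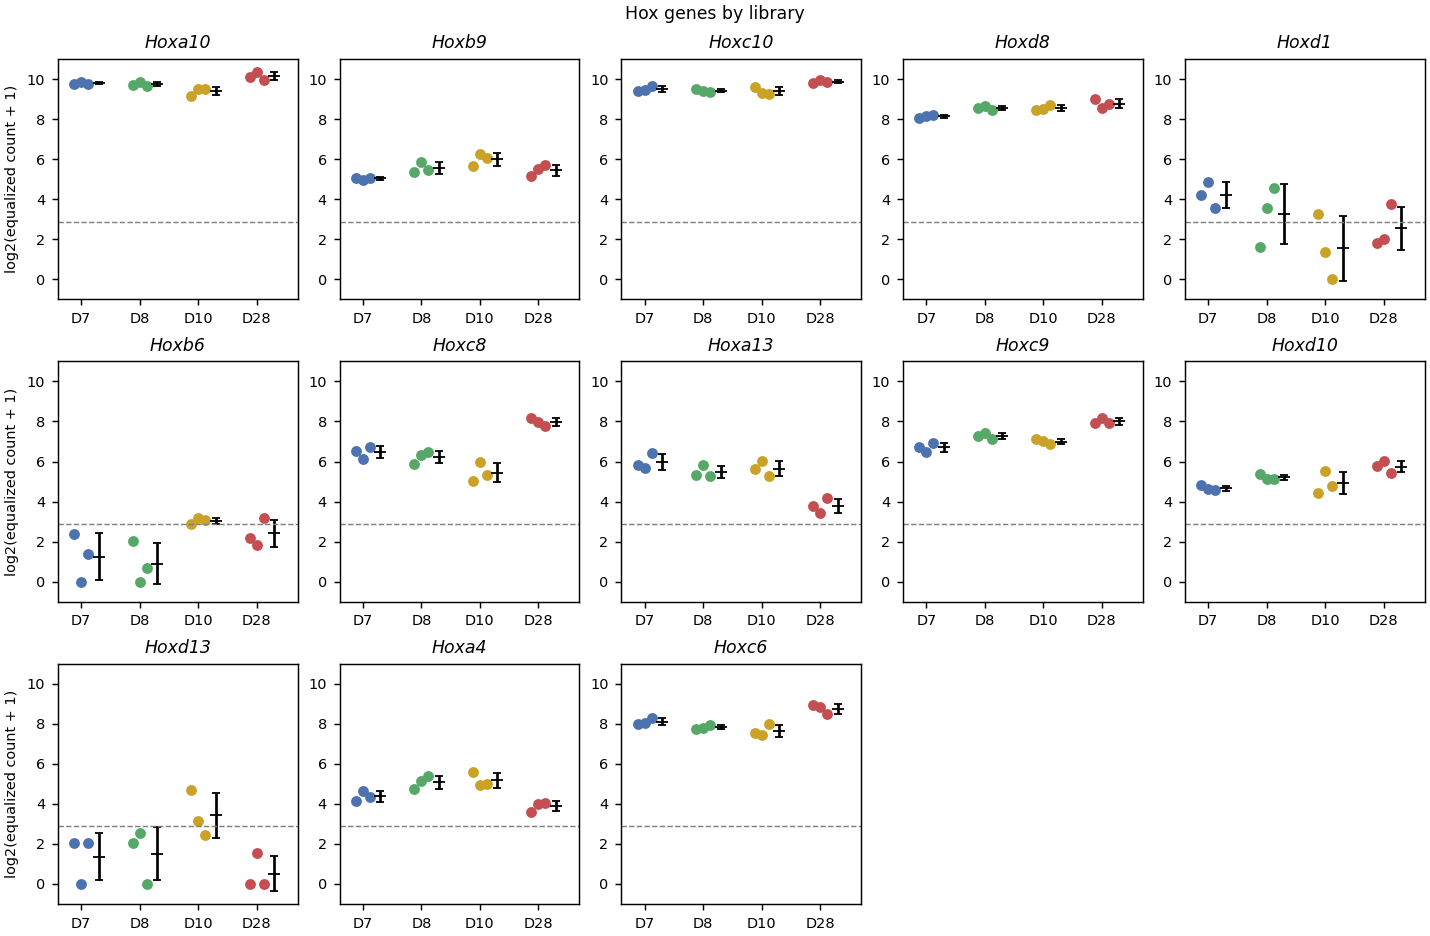
Log2 level of the 13 Hox genes described by library (dots) with the mean ± SD of 3 libraries beside them; the dashed line is the highest level that 3 reads reach in any library, 2.87. Hoxc8 is lowest at D10 and highest at D28, Hoxa13 drops at D28, and Hoxd1, Hoxb6 and Hoxd13 lie around the dashed line.

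Between D10 and D28, 6 of the 37 genes were called, 3 in each direction, and 27.5% of all genes tested were called, 13.8% higher and 13.7% lower. Without the fold threshold 12 passed, against 52.4%. Hoxc8, Hoxc6 and Hoxc9 rose and Hoxa13, Hoxa4 and Hoxd13 fell. Hoxc8 measured 8.20, 7.95 and 7.80 at D28, above every library of the other 3 time points, and its rise from D10 was the largest (2.53, SE 0.27, limma adjusted p = 1.1e-06). Hoxc6 (chr15:102998257-103011881, plus strand), which lies beside it, measured 8.00, 8.02 and 8.30 at D7, 7.75, 7.80 and 7.95 at D8, 7.53, 7.45 and 7.97 at D10 and 8.95, 8.86 and 8.47 at D28. Its D28 libraries were the highest, and the rise from D10 was 1.11 (SE 0.17, limma adjusted p = 6.5e-05). Hoxc9 (chr15:102976439-102985099, plus strand) measured 6.71, 6.50 and 6.95 at D7, 7.27, 7.44 and 7.11 at D8, 7.11, 7.00 and 6.87 at D10 and 7.90, 8.18 and 7.92 at D28. Its rise from D10 was 1.01 (SE 0.18, limma adjusted p = 0.00023), at the fold threshold, and fell below it without D10 replicate 3, without D28 replicate 2 or with a pseudocount of 5.

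Hoxa13 (chr6:52257694-52260880, minus strand), the paralog of the hand and foot, measured 5.83, 5.66 and 6.44 at D7, 5.34, 5.82 and 5.26 at D8, 5.64, 6.01 and 5.25 at D10 and 3.75, 3.45 and 4.16 at D28. All D28 libraries lay below all others, and each still held between 15 and 27 reads. The drop from D10 was -1.85 (SE 0.33, limma adjusted p = 0.00023). Hoxa4 (chr6:52189671-52191753, minus strand), an anterior paralog, measured 4.14, 4.66 and 4.34 at D7, 4.74, 5.16 and 5.38 at D8, 5.58, 4.95 and 4.99 at D10 and 3.60, 4.00 and 4.05 at D28. It was highest at D8 and D10, and its D28 libraries were the lowest, and 16.0% of its longest transcript lies opposite exons of another gene (-1.29 against D10, SE 0.34, limma adjusted p = 0.0045). Hoxd13 (chr2:74668310-74671599, plus strand) measured 2.03, 0 and 2.03 at D7, 2.03, 2.52 and 0 at D8, 4.67, 3.17 and 2.44 at D10 (12, 5 and 3 reads) and 0, 1.54 and 0 at D28 (0, 3 and 0 reads). Only D10 held more than 4 reads in a library. The fitted difference of D28 from D10 was -2.91 (SE 0.81, limma adjusted p = 0.007), and with values below 2.87 set to 2.87 it was -0.70 and not called.

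From D7 to D28, 4 of the 37 genes were called, 3 higher and 1 lower, and 17.3% of all genes tested were called, 8.63% higher and 8.66% lower. Hoxa13 fell by 2.19 (SE 0.33, limma adjusted p = 8.9e-05), a 4.56-fold lower level at D28. Hoxc8 rose by 1.52 (SE 0.27, adjusted p = 0.00031), Hoxc9 by 1.28 (SE 0.18, adjusted p = 4.3e-05) and Hoxd10 by 1.08 (SE 0.32, adjusted p = 0.015). Hoxd10 (chr2:74691924-74695105, plus strand), a paralog of the upper limb segment, measured 4.80, 4.61 and 4.56 at D7, 5.37, 5.12 and 5.12 at D8, 4.45, 5.51 and 4.79 at D10 and 5.77, 6.01 and 5.44 at D28. Its D28 libraries were all above those of D7 and D8 and overlapped with those of D10, and the call was lost without D28 replicate 2 (0.95) or with a pseudocount of 5 (0.97). The calls of Hoxa13, Hoxc8 and Hoxc9 held in all 22 alternatives that kept the fold threshold, and with a threshold of 2 on the log2 scale that of Hoxa13 alone remained. Of the paralogs of Hoxa13, Hoxc13 stood at 4.74 ± 0.49 at D7 and 5.00 ± 0.70 at D28 (difference 0.26, 95% interval -0.66 to 1.18), and Hoxb13 and Hoxd13 were too low to compare.

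Beyond the calls, more Hox genes had higher than lower means at D28. Of the 37, 28 had a higher mean at D28 than at D7, with a median difference of 0.37, whereas 47.6% of all genes tested had a higher mean and their median was -0.03. When values below 2.87 were set to 2.87, 22 were higher, 7 had no difference left and 8 were lower, with a median of 0.13, against 42.2% of all genes and a median of 0.00. Scaled by median of ratios, 28 were again higher, with a median of 0.42 against 0.02. As fitted, positive differences were found for 8 of 11 Hoxa, 6 of 9 Hoxb, 9 of 9 Hoxc and 5 of 8 Hoxd genes, and for 6 of 11 genes of paralogs 1 to 4, 11 of 11 of paralogs 5 to 8 and 11 of 15 of paralogs 9 to 13. Those of Hoxb3, Hoxb5, Hoxb8, Hoxc12, Hoxd3 and Hoxa2 did not remain with values below 2.87 set to 2.87, which leaves 3 of 9 Hoxb genes and 3 of 11 genes of paralogs 1 to 4, and those of Hoxb6, Hoxb7 and Hoxd4 shrank to 0.10, 0.11 and 0.13. The counts for Hoxa, Hoxc and Hoxd and for paralogs 5 to 8 and 9 to 13 were lower as well, so not all Hoxc genes or paralogs 5 to 8 stayed positive. Without the fold threshold, 10 genes passed with higher values at D28 and 1, Hoxa13, with a lower value, against 17.6% and 19.7% of all genes tested. Those below a log2 fold change of 1 were Hoxd9 (0.92), Hoxa7 (0.90, with 28.8% of its longest transcript opposite exons of Hoxaas3), Hoxa5 (0.81), Hoxc6 (0.66), Hoxd8 (0.64), Hoxc10 (0.37) and Hoxa10 (0.36), and in all 11 passed against 37.3%. In bulk samples, more cells of a type and more RNA per cell cannot be told apart.

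**Figure D4:**
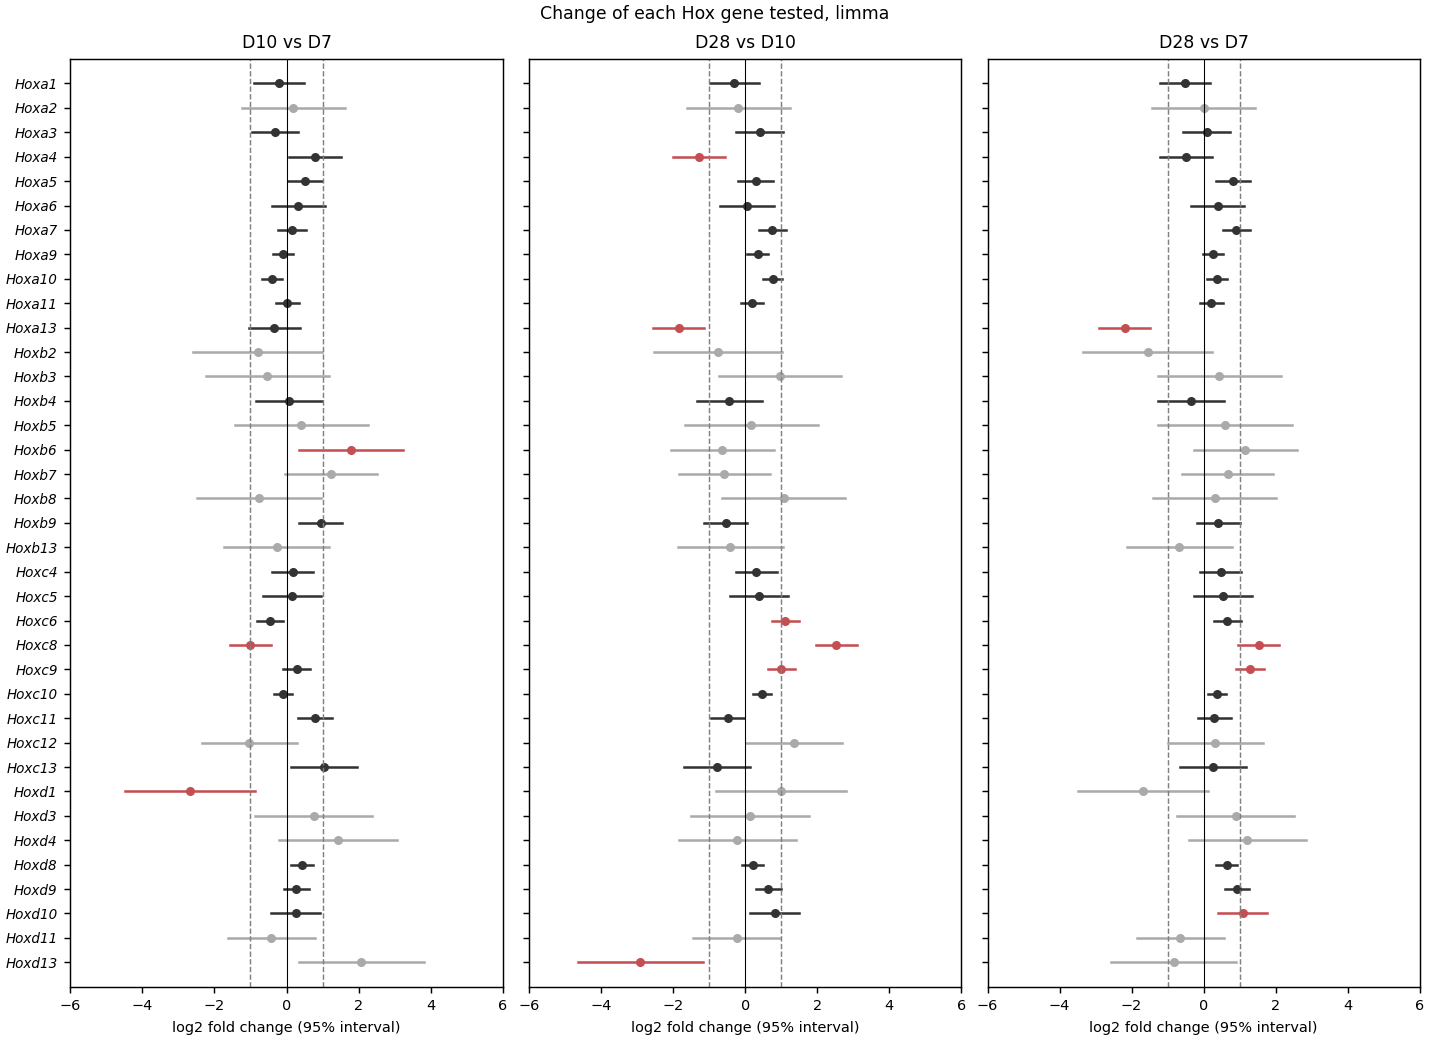
Log2 fold change with its 95% interval (limma) of the 37 Hox genes tested for D10 vs D7, D28 vs D10 and D28 vs D7. Red marks called genes, black genes above 3 reads in all 12 libraries and grey genes at or under 3 reads in at least 1; dashed lines are at -1 and 1. Most points of D28 vs D7 lie right of 0, with Hoxa13 the exception among the called genes.

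A 95% interval within -1 and 1 bounds a difference to less than 2-fold, and does not mean that there was none. From D7 to D28 the 95% interval lay wholly between -1 and 1 for 7 of the 37 genes, which were Hoxa3, Hoxa9, Hoxa10, Hoxa11, Hoxc10, Hoxc11 and Hoxd8, against 48.1% of all genes tested. The number was 20 with a pseudocount of 5 and 21 with values below 2.87 set to 2.87. Of the 7, Hoxd8 (0.64, limma adjusted p = 0.0019), Hoxc10 (0.37, adjusted p = 0.025) and Hoxa10 (0.36, adjusted p = 0.034) had higher values at D28, with no overlap between the D7 and D28 libraries. Among the genes above 3 reads in every library, the share was 7 of 23 Hox genes against 65.8% of all such genes. Between D8 and D10 it was 17 of 23 against 71.1%. Over all 37 genes, the number was 17 between D8 and D10 against 51.9% of all genes tested, 16 between D7 and D10 against 45.6%, and 10 between D10 and D28 against 39%. The median SE of a difference was 0.34 for the Hox genes and 0.20 for all genes tested. For D28 against D7, the difference of Hoxa11 was 0.20 (95% interval -0.11 to 0.52) and that of Hoxa9 0.26 (95% interval -0.03 to 0.54).

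Of the genes called between D7 and D28, Hoxa13 and Hoxd10 matched a promoter entry of RefSeq (GRCm38.p6), and the 250 bases upstream of each start are printed 5′ to 3′ on the gene's strand, with CpG dinucleotides in capitals. The Hoxa13 window is chr6:52260881-52261130 on the minus strand and the Hoxd10 window is chr2:74691641-74691890 on the plus strand.
Hoxa13 promoter: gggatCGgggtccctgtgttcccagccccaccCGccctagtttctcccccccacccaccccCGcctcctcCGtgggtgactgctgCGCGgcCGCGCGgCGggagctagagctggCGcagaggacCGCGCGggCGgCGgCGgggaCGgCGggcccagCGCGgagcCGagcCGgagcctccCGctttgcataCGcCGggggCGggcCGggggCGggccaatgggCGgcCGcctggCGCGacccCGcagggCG
Hoxd10 promoter: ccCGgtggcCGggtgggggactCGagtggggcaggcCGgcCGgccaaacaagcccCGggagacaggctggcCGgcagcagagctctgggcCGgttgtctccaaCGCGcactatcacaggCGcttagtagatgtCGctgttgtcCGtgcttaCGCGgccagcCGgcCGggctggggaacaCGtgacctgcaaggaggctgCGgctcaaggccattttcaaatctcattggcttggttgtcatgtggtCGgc
They held 35 and 20 CpG dinucleotides, against a median of 12.5 over the 24 windows of the 22 Hox genes that matched and 6 over 32851 windows of all genes. The letters TGATNNAT, the composite site of HOX and PBX proteins, were searched on both strands and occurred in 4 of the 24 windows and in 7.68% of all windows. The letters AGGTCA, a core site of nuclear receptors such as retinoic acid receptors, occurred in 6 of the 24 and in 14.0% of all windows. The letters TTTTAT, a core of sites of posterior HOX proteins, occurred in 4 of the 24 and in 17.0% of all windows. The Hoxd10 window held AGGTCA, and the Hoxa13 window held none of these letters.

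HOX proteins bind DNA together with TALE homeodomain cofactors, the PBX, MEIS and PKNOX proteins. Of 9 such genes, all tested, 1 was called at D28 against D7, against 17.3% of all genes tested, where Meis2 rose from 7.71 ± 0.03 to 8.86 ± 0.09 (adjusted p = 4.9e-06). Pknox2 was the 1 gene of the 9 called in each of the other 4 comparisons. Of all genes tested, 7.04% were called at D8 against D7 and 9.66% at D10 against D8. The shares were 18.9% at D10 against D7 and 27.5% at D28 against D10. Pknox2 fell from 7.81 ± 0.32 at D7 to 6.80 ± 0.11 at D8 and 5.33 ± 0.15 at D10 and rose to 8.44 ± 0.03 at D28, 3.10 above D10 (limma adjusted p = 3.5e-09). The median difference of the 9 genes at D28 against D7 was 0.20.

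Of 17 Polycomb genes, 2 rose and 1 fell at D28 against D7, a share near the 17.3% of all genes tested. Cbx7, a chromodomain subunit of repressive complex PRC1, rose by 1.52 (adjusted p = 1.7e-05) and Ezh1, an H3K27 methyltransferase, rose by 1.19 (adjusted p = 1.5e-05). Ezh2, the other H3K27 methyltransferase, fell by 1.28 (adjusted p = 2.7e-05), from 8.13 ± 0.17 to 6.85 ± 0.26. At D28 against D10, where 27.5% of all genes were called, Cbx7 rose and Ezh2, Rnf2 and Phc2 fell. Of the 9 trithorax and H3K27 demethylase genes, 0 were called at D28 against D7, and Wdr5 fell at D28 against D10 (-1.15, adjusted p = 6.9e-07). Of 11 genes known to act upstream of Hox genes in the embryo, 7 were tested and Cdx2 and Cdx4 were at 0 in every library. Rarb, a retinoic acid receptor, and Aldh1a2, which makes retinoic acid, were the 2 that fell at D28 against D7, by 1.57 (adjusted p = 0.023) and 1.82 (adjusted p = 0.016).

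Of 15 limb position genes, 14 were tested, and Shh, the signal of the posterior limb bud, was at 0 in every library. At D10 against D7, 3 rose (Emx2, Irx3 and Irx5) and 2 fell (Tbx2 and En1), against 18.9% of all genes tested called. At D28 against D10, 4 rose and 4 fell, against 27.5%. At D28 against D7, 3 rose (Tbx5, Emx2 and Hand2) and Tbx3 fell, against 17.3%. Emx2, a gene of girdle and proximal limb development, rose by 2.37 at D10 (adjusted p = 7.4e-06), and Shox2, a gene of the upper limb segment, stood at 10.68 ± 0.06 at D7 and 10.89 ± 0.18 at D28.

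Markers of the cell types that the pellets could hold moved over the same time points, and their part in the Hox values was not tested. Of all genes tested, 8.63% were called higher and 8.66% lower at D28 against D7. At D10 against D7, 8.5% were called higher and 10.4% lower, and at D28 against D10, 13.8% and 13.7%. The share called either way at D8 against D7 was 7.04%. All 5 fat markers were called higher at D28 against D7, and their summed linear level ranged from 3804 to 4482 at D7 and from 39974 to 54600 at D28. All 5 skeletal muscle markers were called lower, with sums from 2124 to 2666 at D7 and from 52.7 to 136 at D28. Of the 7 cartilage markers, 5 fell at D10 against D7, the time point of the lowest Hoxc8, and 2 rose and 1 fell at D28 against D7. Cartilage sums ranged from 2441095 to 2453861 at D7 and from 2371466 to 2437702 at D28, with a lower range of 1100014 to 1141298 at D10. The libraries share a common distribution, so a gene that ranks highest in a library has the same value in each library it leads. A sum that holds such a gene follows its rank, so the close D7 and D28 sums do not show equal cartilage levels. Gene by gene, the median difference of the 7 markers at D10 against D7 was -1.65. Of the 6 bone markers, 3 rose and 1, Ibsp, fell at D28 against D7, while their sum was lower, from 34893 to 77553 at D7 against 19410 to 28817 at D28, and lowest at D10 with 2112 to 3769. Of the 3 hypertrophic cartilage markers, Col10a1 fell at D28 against D7, with sums from 181461 to 222382 at D7 and from 56910 to 98352 at D28. At D10 the sums were 210616 to 341079, although 2 of the 3 were called lower at D10 against D7, with a median difference of -2.51. At D28 against D10, 2 were called higher and 1 lower. The 5 endothelial markers summed to 18.8 to 43.0 at D7, 48.9 to 208.9 at D8, 15.5 to 88.4 at D10 and 16.0 to 35.4 at D28, with 2 called higher at D8 against D7 and 1 lower at D28 against D7. The 6 blood markers summed to 311 to 415 at D7, 484 to 602 at D8, 570 to 1093 at D10 and 242 to 748 at D28. Of the 5 tested, 1 rose at D10 against D7, 2 rose and 1 fell at D28 against D10, and 1 fell at D28 against D7, and Hba-a1 was at 0 in 10 of 12 libraries. Of the 5 nerve and glia markers, 2 rose and 2 fell at D28 against D7, with sums from 4075 to 4648 at D7 and from 7394 to 10117 at D28. Their median difference was -1.12, so the higher sum does not stand for the list as a whole.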

How the data were processed

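Values of 12 libraries, 3 replicates at each of 4 time points, were used. Per the labels and the supplementary methods, the authors trimmed reads with Trimmomatic 0.36, aligned them with HISAT2, annotated them with Cufflinks, counted reads per gene with HTSeq, and equalized and transformed the counts. The deposited unit is log2 of the equalized count plus 1, and the libraries share 1 distribution, with a common maximum of 20.92. The processing notes list GRCm38, while the supplementary methods name a human build and the rows carry mouse symbols. The kit keeps strand, and whether counting used strand is not given in the sources used here.

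Each library's distinct values were ranked to recover reads for low values, and 562 genes gave relative depth. Read floors cover counting error only, because PCR copies were not marked. The 17674 genes that reached 1 in 3 or more libraries were tested. All 4 groups were fitted together with limma 3.58.1 in R 4.3.3, with a variance trend, and p-values are two-sided and were adjusted by Benjamini-Hochberg across the 17674 genes. The fit was tested on simulated data. Per-length levels are unlogged values per kilobase of the longest protein-coding GENCODE M21 transcript. The members and gene lists (TALE, Polycomb, trithorax, upstream, limb position, flanking and non-coding genes, and markers of cartilage, hypertrophic cartilage, bone, blood, endothelium, muscle, fat and nerve) were chosen with earlier results of these data known. Values by library are given for the highest member of each cluster by per-length level and for called members with the largest changes, up to 8 in D10 vs D7 and D28 vs D7 and up to 5 in D8 vs D7 and D28 vs D10. Alternatives covered the filter, scaling, pseudocount, low values, variance prior, fold threshold, the study's own rule, a block for replicate number and each library left out. No sequencing batch or date is given. Figures used Python 3.11.15 and matplotlib 3.10.9.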

Additional observations from a re-analysis of the deposited data

How the results depend on the processing

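The calls of Hoxa13, Hoxc8 and Hoxc9 at D28 against D7 and of Hoxa13, Hoxc8, Hoxa4 and Hoxc6 at D28 against D10 held in all 22 alternatives that kept the fold threshold, while those of Hoxd1, Hoxb6 and Hoxd13 rest on few reads. The number of Hox genes called at D8 against D7 was 0, and 1 with a pseudocount of 0.1, 2 by the study's own rule and 3 without a fold threshold. At D10 against D8 it was 1, and 0 with a filter on a mean of at least 3, a pseudocount of 0.1 or low values raised, 2 with a pseudocount of 5 or without a fold threshold, and 0 to 2 with 1 library left out (0 without D8 replicate 2, D8 replicate 3 or D10 replicate 3). At D10 against D7 it was 3, and 1 with the mean filter, with low values raised or with a fold threshold of 2 on the log2 scale, 8 without a fold threshold, and 1 to 3 with 1 library left out (1 without D7 replicate 3 or D10 replicate 3). At D28 against D10 it was 6, and 2 with the threshold of 2, 12 without any, and 5 to 7 with 1 library left out. At D28 against D7 it was 4, and 1 with the threshold of 2, 11 without any, and 3 to 5 with 1 library left out. In the comparisons of D10 with D8 and D7, the genes called also changed with the library left out. At D10 against D8, Hoxd1 alone was called without D10 replicate 1 and Hoxc8 alone without D10 replicate 2. At D10 against D7, Hoxd13 alone was called without D10 replicate 3, and Hoxb6 and Hoxb7 without D7 replicate 1. The number of intervals within -1 and 1 at D28 against D7 rose from 7 to 20 with a pseudocount of 5 and 21 with low values raised, which both compress low values. The ratio of the Hoxb sum at D28 to D7 ranged from 1.14 to 1.34 with 1 library left out, the highest without D7 replicate 1.

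The labels give the time points the same replicate numbers but do not say that they mark a shared preparation. Correlations of same-numbered libraries ranged from -0.06 to 0.07, none of 18 was over 0.1, and 3 of 12 libraries correlated best with their own number, so the numbers were not treated as pairs. With a replicate block, 4 Hox genes were called at D10 against D7, with Hoxc13 added, 14 passed the F test instead of 17, and the other counts of calls were 0, 1, 6 and 4. Depth limits what can be said of the 16 members at or under 3 reads in at least 1 library.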

Other observations

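Genes that border the clusters and non-coding genes within them were also measured, and their difference from the Hox genes was not tested. Of 10 flanking genes tested, 1 was called at D28 against D7, against 17.3% of all genes tested, where Evx1, a homeobox gene beside Hoxa13, was at 2.86 ± 0.23 at D7, near the level of 3 reads, and listed at 0 in all D28 libraries, and at D28 against D10, where 27.5% of all genes were called, Hnrnpa1 (-1.07, limma adjusted p = 4.8e-06) and Lnpk (-1.14, limma adjusted p = 2.3e-05) fell. The median difference of the flanking genes at D28 against D7 was -0.30, against -0.03 over all genes tested.

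Of 9 non-coding and antisense genes tested, with a median difference of -0.11 at D28 against D7, 1 was called in that comparison, against 17.3% of all genes tested, and 1 at D28 against D10, against 27.5%. Hoxd3os1 rose at D28 against D7 by 1.04 (limma adjusted p = 0.025) and Hoxa11os fell at D28 against D10 by 1.08 (limma adjusted p = 0.0065), from 5.84 ± 0.31 to 4.76 ± 0.37, while Hoxa11 itself differed by 0.19 between those time points. Hotair, transcribed within the Hoxc cluster, stood at 2.45 ± 0.53 at D7 and 2.34 ± 0.53 at D28, Hotairm1 at 5.37 ± 0.47 and 4.78 ± 0.22, and Hottip, beside Hoxa13, was at 0 in 9 of 12 libraries. Mir10a, Mir10b and Mir196b were listed at 0 in every library, and a poly(A) library does not measure mature microRNAs.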
